A study of Mus musculus with 2 samples.

Results

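The 9 genes described here encode the machinery that writes N6-methyladenosine (m6A) on RNA: Mettl3, Mettl14, Wtap, Virma, Zc3h13, Rbm15, Rbm15b and Cbll1, the subunits of the messenger RNA methyltransferase complex, and Mettl16, a separate m6A methyltransferase. They were chosen by gene symbol and not by a cut on measured values, though with earlier results of these data known. All 9 were found among the 32285 genes counted. Their transcripts were followed in single-cell RNA sequencing of mouse retina at postnatal day 7 (P7), between a control library of genotype Mettl14 fl/fl or fl/wt, with no Cre named, and a Mettl14-cKO library of genotype Mettl14 fl/fl;Chx10-Egfp/Cre. Animals of both libraries thus carried at least 1 floxed Mettl14 allele. Cre of this transgene is made in retinal progenitors, so it acts in the lineage that forms the retinal neurons and Müller glia and not in blood vessels or microglia. The transgene is known to act in a mosaic of progenitors. The labels do not give the number or sex of the animals behind each library, a batch, or which exons are floxed.

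In the writer complex, Mettl3 carries the catalytic site and Mettl14 forms the platform that binds RNA beside it. Wtap holds this pair in nuclear speckles, and Virma, Zc3h13 and Cbll1 (Hakai) form the larger regulatory part with it. Rbm15 and its paralog Rbm15b bind RNA and bring the complex to its targets. Mettl16 works outside the complex on U6 small nuclear RNA and on the Mat2a transcript, which encodes the enzyme that makes the methyl donor S-adenosylmethionine. The mark affects splicing, decay and translation of messenger RNA and is known for its part in the timing of neurogenesis.

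Promoter sequence was available in RefSeq (GRCm38.p6) for 7 of the 9 genes; Mettl14 and Virma had no entry. Stretches of 30 bases are shown because they hold short core-promoter motifs that several of the genes share, and they give the sequence context of genes whose levels are compared below. The capitals in the first pair mark the YY1 motif AAGATGG, and in the other 3 the ETS motif CCGGAAG.
Rbm15b, chr9:106887043-106887072, minus strand: tccttttgtccAAGATGGcggcgccggggg
Mettl16, chr11:74770852-74770881, plus strand: attggctgcgcAAGATGGcggcgcgcttgg
Mettl3, chr14:52305108-52305137, minus strand: tggttcgccaaCCGGAAGtggcttttcatc
Zc3h13, chr14:75284307-75284336, plus strand: taatctgggggCCGGAAGctgccttgcctg
Cbll1, chr12:31499596-31499625, minus strand: gcctctgcgctCCGGAAGgtagggcgcagg

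The YY1 letters begin 14 bases after the RefSeq start of Rbm15b and at the start base itself in Mettl16. On either strand they were found in 2082 of 32851 promoter windows of 300 bases (6.34%). The ETS letters, 2 bases before the start of Mettl3, 48 before that of Zc3h13 and 2 after that of Cbll1, stood in 8.86% of windows. Of the other motifs searched on both strands, the NRF1 half-site TGCGCA was found in Mettl16, where it shares 1 base with the YY1 letters, and in 7.76% of all windows, and the E-box CACGTG in Rbm15b and in 7.15%. CCAAT was found in Wtap, Rbm15 and Mettl16 (37.4% of windows), and the GC box GGGCGG in 5 of the 7 (35.7%). A match describes the letters in the window only.

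Barcodes with at least 1000 unique molecular identifiers (UMIs, which count captured RNA molecules) were kept: 11426 in the control library, with 54544552 UMIs and a median of 3487, and 13502 in the Mettl14-cKO library, with 58511730 UMIs and a median of 3212. Mitochondrial transcripts took 3.91% and 2.99% of UMIs and ribosomal protein transcripts 10.1% and 12.3%. The libraries shared 57 barcode sequences. Each barcode was put in a cell class by the number of that class's marker genes it held, and called "X-like". The genes leading each class used below by fold included 2 to 8 of its own markers, and at most 1 of any other class. Barcodes were gated on these same markers, so this is no independent check of class identity. Rod-like barcodes made up 34.7% of the control and 21.7% of the Mettl14-cKO library. Each genotype had 1 library, so there was no replicate check, no test was made, and intervals (95%, exact Poisson or conditional) cover counting error only. Levels are in UMIs per 1000000 of the library or class (CPM), ratios are Mettl14-cKO over control, and a gene is called higher or lower when its log2 ratio is at least 0.32 from 0 (a ratio of 0.8 or less, or its inverse or more) with 30 or more UMIs over both libraries. In these 3′ tag data levels are not scaled by length, so levels are compared for a gene between libraries and classes and not between genes. Fewer cells of a class and less RNA per cell cannot be told apart in the sums over all barcodes.

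Mettl14, the targeted gene (chromosome 3, 123368297 to 123386108, minus strand, GRCm38), had 1478 UMIs among control and 846 among Mettl14-cKO barcodes. Its level stood at 27.1 CPM (25.7 to 28.5) and 14.5 CPM (13.5 to 15.5), a ratio of 0.534 (0.490 to 0.581). Transcript of the targeted gene was thus lower but still counted in the Mettl14-cKO library. A tag at the 3′ end may lie outside the deleted exons, so the remaining counts do not measure how much intact transcript was left. Mettl3 (chromosome 14, 52294841 to 52305128, minus strand), its catalytic partner, went from 1583 UMIs to 1315, or from 29.0 to 22.5 CPM, a ratio of 0.774 (0.719 to 0.834). The 3′ end of Mettl3 overlaps Tox4 on the opposite strand, whose ratio was 0.969. Mettl14 stood further from the control level than Mettl3 did: per UMI of Mettl14 there were 1.07 UMIs of Mettl3 (0.997 to 1.15) among control and 1.55 (1.42 to 1.70) among Mettl14-cKO barcodes.

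Over all barcodes, 5 of the 9 genes were higher, 2 were lower and 2 were neither. Among all 16164 genes with enough UMIs, 24.5% were higher and 23.6% lower. The median log2 ratio was 0.40 over the 9 genes and -0.02 over all of those genes. The 2 lower genes were the catalytic pair, Mettl3 and Mettl14. Those higher were Rbm15, Rbm15b, Wtap, Mettl16 and Virma, each with an interval above 1. Summed over the 9 genes, the control level was 447 CPM and the Mettl14-cKO level 560 CPM.

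**Figure D1:**
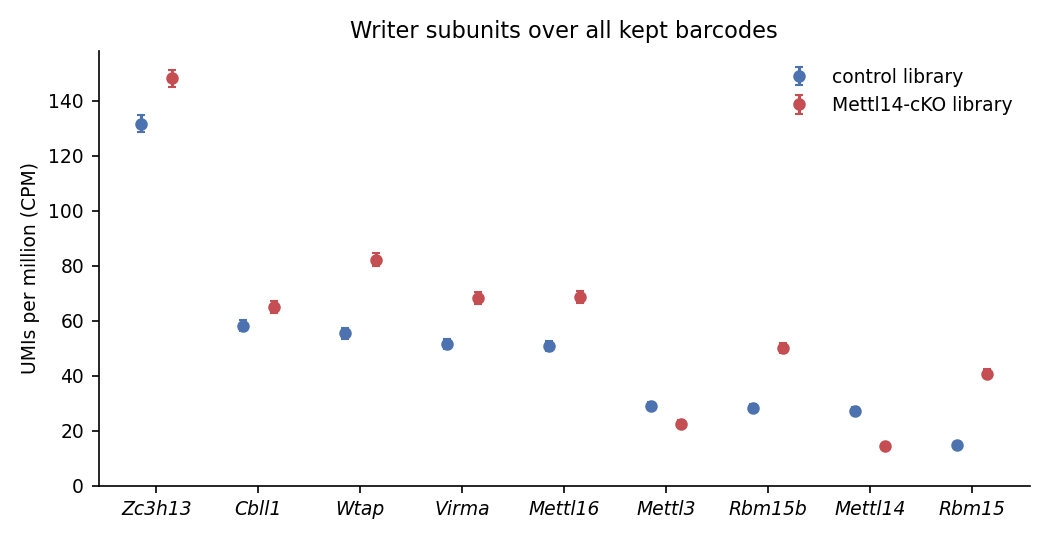
Level of each of the 9 genes (CPM, linear axis from 0) over all kept barcodes of the control and the Mettl14-cKO library, 1 library each. Points are levels and bars exact 95% Poisson intervals. Mettl3 and Mettl14 stand lower in the Mettl14-cKO library and Rbm15 stands furthest above its control level, at 14.9 against 40.7 CPM.

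Rbm15 (chromosome 3, 107325421 to 107333673, minus strand) had the ratio furthest from 1 of the 9. It had 814 UMIs among control and 2382 among Mettl14-cKO barcodes, 14.9 CPM (13.9 to 16.0) against 40.7 (39.1 to 42.4), a ratio of 2.73 (2.52 to 2.96). Its paralog Rbm15b (chromosome 9, 106880918 to 106887428, minus strand) had 1535 and 2938 UMIs, 28.1 against 50.2 CPM, a ratio of 1.78 (1.68 to 1.90). Both RNA-binding paralogs were higher, and Rbm15 more so: UMIs of Rbm15 per UMI of Rbm15b were 0.530 (0.486 to 0.578) among control and 0.811 (0.768 to 0.856) among Mettl14-cKO barcodes. The count of Rbm15b is less certain than that of Rbm15, because Manf spans the whole of Rbm15b on the same strand and Dcaf1 overlaps its 3′ end on the opposite strand. Manf stood at a ratio of 1.14 and Dcaf1 at 1.09.

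Among the regulatory subunits, Wtap (chromosome 17, 12966796 to 12994169, minus strand) had 3020 control and 4808 Mettl14-cKO UMIs, 55.4 against 82.2 CPM, a ratio of 1.48 (1.42 to 1.55). Virma (chromosome 4, 11485958 to 11550684, plus strand), the scaffold of the regulatory part, had 2811 and 3991 UMIs, 51.5 against 68.2 CPM, a ratio of 1.32 (1.26 to 1.39). The other subunits of this part did not reach the threshold. Zc3h13 (chromosome 14, 75284373 to 75344426, plus strand), which keeps the regulatory part in the nucleus, stood at 132 against 148 CPM (7181 and 8670 UMIs), a ratio of 1.13 (1.09 to 1.16). Cbll1 (chromosome 12, 31484829 to 31499616, minus strand), an E3 ubiquitin ligase, stood at 58.2 against 64.9 CPM (3174 and 3799 UMIs), a ratio of 1.12 (1.06 to 1.17). Mettl16 (chromosome 11, 74770830 to 74828525, plus strand), which is not part of the complex, had 2769 and 4013 UMIs, 50.8 against 68.6 CPM, a ratio of 1.35 (1.29 to 1.42).

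The share of barcodes with a UMI was compared after thinning each barcode to 1500 UMIs, which left out 1464 control and 1628 Mettl14-cKO barcodes that were shallower. Mettl14 was found in 3.74% (3.38 to 4.14%) of control and 2.23% (1.97 to 2.51%) of Mettl14-cKO barcodes, and without thinning in 11.1% and 5.75%. Rbm15 was found in 2.23% (1.95 to 2.54%) and 6.44% (6.01 to 6.90%), and without thinning in 6.49% and 14.9%. Both shares moved the same way as the levels. No barcode held more than 6 UMIs of either gene, so neither total came from a few barcodes. Red blood cell-like barcodes, which should lack these transcripts, gauge free RNA: 24 control and 6 Mettl14-cKO barcodes, of median depth 4443 and 4739, held 2 and 1 UMIs of all 9 genes together. That is 17.5 and 33.0 CPM, against 447 and 560 CPM over all barcodes. Without thinning, Mettl14 had a UMI in 1 of the 24 control barcodes (4.17%; 0.105 to 21.1%) and Rbm15 in 1 of the 6 Mettl14-cKO barcodes (16.7%; 0.421 to 64.1%), and after thinning neither had any in the 23 and 6 left (Clopper-Pearson upper limits 14.8% and 45.9%). These intervals hold the shares over all barcodes, and so few barcodes set no useful limit on free RNA for a single gene.

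Rod-like barcodes, the largest class, came to 3970 control and 2932 Mettl14-cKO barcodes. Of these, 150 and 288 held exactly the 6 markers required, and the rod marker Gngt1 stood at 6256 and 2766 CPM. The barcodes gated as rod-like may thus not be alike in the libraries, and the part this has in the ratios was not tested. Of the 9 genes, 4 were higher and 1 lower there, where 24.3% of all genes were higher and 25.1% lower. Mettl14 stood at 33.5 CPM (413 UMIs) against 15.9 (137 UMIs), a ratio of 0.476 (0.3895 to 0.579). Mettl3 stood at 36.8 against 30.8 CPM, a ratio of 0.838 (0.717 to 0.977), which did not reach the threshold. The UMIs of Mettl3 per UMI of Mettl14 were 1.10 (0.960 to 1.26) and 1.93 (1.57 to 2.40). The genes higher in rod-like barcodes were Rbm15 (18.7 against 41.0 CPM, ratio 2.19), Rbm15b (23.9 against 38.9, 1.62), Wtap (62.7 against 93.0, 1.48) and Mettl16 (57.6 against 72.9, 1.27). Virma lay just inside the threshold at 1.23 (1.11 to 1.36).

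Cone-like barcodes, 247 and 198, also held many rod transcripts, with a median of 11 rod markers in both libraries. In them 3 of the 9 genes were higher and 2 lower, against 19.1% and 27.2% of all genes. Mettl14 had its lowest ratio of the classes measured, 0.417 (0.249 to 0.673), at 35.8 against 14.9 CPM. Mettl3 stood at 37.9 against 29.9 CPM, with an interval of the ratio that includes 1. Wtap (51.8 against 95.8 CPM, ratio 1.85), Rbm15b (20.2 against 36.7, 1.81) and Rbm15 (19.8 against 34.0, 1.72) were higher.

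Bipolar-like barcodes, 1571 and 1450, came from the interneurons that relay photoreceptor signals. In this class 6 of the 9 genes were higher and 2 lower, against 24% and 26% of all genes. Here Mettl3 was as far below its control level as Mettl14: Mettl3 had 192 and 91 UMIs, 29.8 against 17.1 CPM, a ratio of 0.575 (0.443 to 0.741). Mettl14 had 159 and 78 UMIs, 24.7 against 14.7 CPM, a ratio of 0.595 (0.448 to 0.785). UMIs of Mettl3 per UMI of Mettl14 were 1.21 (0.974 to 1.499) and 1.17 (0.853 to 1.60), intervals that overlap. Whether the ratio of Mettl3 differed between bipolar-like and rod-like barcodes cannot be tested with 1 library a genotype; the intervals, 0.443 to 0.741 and 0.717 to 0.977, overlap. Rbm15 had 81 and 220 UMIs, 12.6 against 41.4 CPM, a ratio of 3.29 (2.54 to 4.30). Also higher were Rbm15b at 1.92, Wtap at 1.58, Virma at 1.42, Mettl16 at 1.36 and Cbll1 at 1.33.

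Amacrine-like barcodes, inhibitory interneurons of the inner retina, numbered 1289 and 1892. They had 6 of the 9 genes higher and 2 lower, against 25% and 17.3% of all genes. Rbm15 had 45 and 184 UMIs, 8.63 against 27.5 CPM, a ratio of 3.19 (2.29 to 4.53). Wtap stood at 47.35 against 92.0 CPM, a ratio of 1.94 (1.67 to 2.26). Mettl14 stood at 16.1 against 10.6 CPM, a ratio of 0.660 (0.474 to 0.916), and Mettl3 at 21.7 against 16.9, a ratio of 0.781 whose interval (0.596 to 1.02) includes 1. Zc3h13 passed the threshold here, at 131 against 166 CPM, a ratio of 1.27 (1.15 to 1.39).

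Müller glia-like barcodes, 820 and 1181, had 7 of the 9 genes higher, the most of any class, and 1 lower, against 30.6% and 21.3% of all genes. The higher genes were every member other than the catalytic pair. Rbm15 had 48 and 214 UMIs, 17.3 against 56.5 CPM, a ratio of 3.26 (2.37 to 4.56). Rbm15b stood at 24.2 against 56.0 CPM (2.31; 1.75 to 3.09) and Mettl16 at 32.8 against 64.9 CPM (1.98; 1.55 to 2.54). Cbll1 at 1.54, Virma at 1.44, Wtap at 1.29 and Zc3h13, with a log2 ratio of 0.32, completed the higher genes. With other processing the ratio of Wtap went down to 1.196 and that of Zc3h13 to 1.215, short of the threshold. The count of 7 thus depends on the processing. Mettl14 stood at 24.9 against 16.9 CPM (69 and 64 UMIs), a ratio of 0.678 (0.475 to 0.967). Its thinned share of barcodes with a UMI was 2.42% (1.42 to 3.85%) and 2.73% (1.85 to 3.88%). Since that share went against the level, no order of the libraries is read from it. Mettl3 stood at 21.7 against 20.3 CPM, a ratio of 0.939 (0.661 to 1.34). Ribosomal protein transcripts took a larger part of the UMIs of this class in the Mettl14-cKO library, 15.2% against 11.0%; the part this has in the ratios was not tested.

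**Figure D2:**
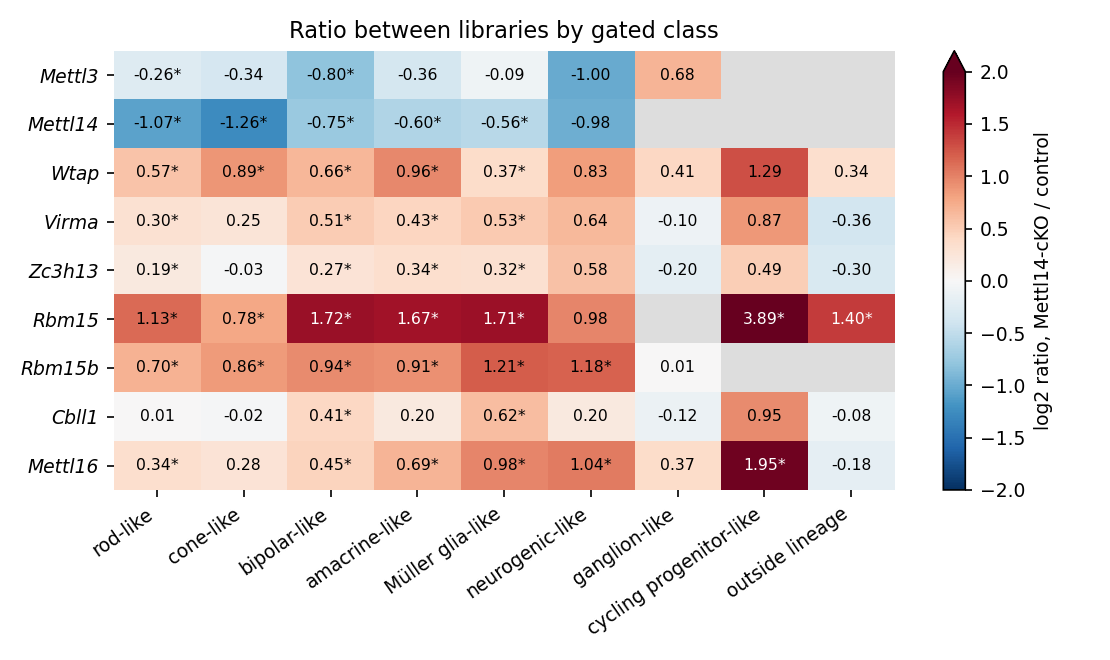
Heat map of the log2 ratio (Mettl14-cKO over control) of each gene (rows) in the gated classes (columns), with 1 library per genotype and colours that saturate at 2. A star marks a ratio whose 95% interval excludes 1 and grey marks under 30 UMIs over both libraries. Mettl14 was lower in all 6 lineage classes in which it was measured and Rbm15 higher in all 7. In cycling progenitor-like and neurogenic-like barcodes, Rbm15 had 1 and 6 control UMIs and was measured only through the Mettl14-cKO library.

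Classes tied to the cell cycle and to new neurons were small in the control library. Cycling progenitor-like barcodes, which held markers such as Mki67 and Top2a, came to 16 control and 124 Mettl14-cKO barcodes; they also held a median of 7 and 5 Müller glia markers. With 1 to 6 UMIs a gene in the control barcodes, the 6 genes with enough UMIs passed only through the Mettl14-cKO library, so their number is not read as a result; of all genes 39.2% were higher and 25.9% lower. Mettl3, Mettl14 and Rbm15b had too few, and Mettl14, with 3 and 18 UMIs, stood at 0.845 (0.247 to 4.48). Rbm15 had 1 UMI in the control barcodes and 105 in the Mettl14-cKO barcodes, 12.2 CPM (0.308 to 67.7) against 180 (147 to 217), a ratio of 14.8 with a counting interval of 2.60 to 589. At 1500 UMIs it was found in 31 of 114 Mettl14-cKO barcodes (27.2%; 19.3 to 36.3%) and 1 of 15 control barcodes. At most 5 of these UMIs came from any barcode. Within the Mettl14-cKO library the level of Rbm15 in cycling progenitor-like barcodes lay above that of the next class, Müller glia-like, at 56.5 CPM (49.2 to 64.6), and the intervals did not overlap. Only Rbm15 and Mettl16 (2 and 55 UMIs, ratio 3.87, 1.02 to 32.8) had an interval excluding 1 in this class. Both genes passed only through the Mettl14-cKO library, so these intervals are not read as a difference.

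Neurogenic-like barcodes, with markers of cells leaving the cycle such as Neurog2 and Dll1, numbered 69 and 344, of which 39 and 215 held exactly the 4 markers required. The 9 genes had 6 to 17 UMIs each in the control barcodes and reached 30 only with the Mettl14-cKO library. In this class 6 of the 9 genes were higher and 2 lower, against 32% and 26% of all genes. Their number is thus not read as a result. Only the intervals of Rbm15b (8 and 97 UMIs, 34.6 against 78.7 CPM, ratio 2.27, 1.11 to 5.41) and Mettl16 (8 and 88 UMIs, ratio 2.06, 1.002 to 4.93) excluded 1. For the same reason these intervals are not read as a difference. Mettl14 stood at 43.3 against 21.9 CPM (0.506; 0.237 to 1.17) and Rbm15 at 26.0 against 51.1 (1.97; 0.856 to 5.57), both with intervals that include 1.

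Ganglion-like barcodes, 95 and 186, and horizontal-like barcodes, 22 and 34, set limits of depth. Of 7 genes measured in ganglion-like barcodes 3 were higher and none lower, against 24.5% and 18.7% of all genes, and of 3 in horizontal-like barcodes 2 were higher, against 28.6%. No interval of these called genes excluded 1. Mettl14 had 8 and 6 UMIs in ganglion-like and 4 and 4 in horizontal-like barcodes, too few for a call. The interval of Mettl3 in ganglion-like barcodes ran from 0.694 to 4.15 around a ratio of 1.61, so a difference was not detectable at this depth.

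Across the 9 classes of the retinal lineage, Mettl14 was lower in 6 of 6 in which it was measured, with ratios from 0.417 in cone-like to 0.678 in Müller glia-like barcodes and 5 intervals below 1. In Müller glia-like and neurogenic-like barcodes the thinned share of barcodes with a Mettl14 UMI was not lower, on few barcodes and with intervals that overlap. Without thinning, the share was 8.05% and 5.17% in Müller glia-like and 13.0% and 7.85% in neurogenic-like barcodes, also with intervals that overlap. Mettl3 was lower in 4 of 7. Its interval lay below 1 in 2, bipolar-like and rod-like, and in rod-like barcodes the ratio did not reach the threshold. The other classes in which it was called lower had intervals that include 1. Wtap was higher in 9 of 9. Its interval lay above 1 in 5, the rod-, cone-, bipolar-, amacrine- and Müller glia-like classes. Ratios there ran from 1.29 in Müller glia-like to 1.94 in amacrine-like barcodes. The ratio of 2.44 in cycling progenitor-like barcodes rested on 3 and 52 UMIs, with an interval (0.790 to 12.2) that includes 1. The counts of this paragraph include the neurogenic-like class and, for genes measured there, the cycling progenitor-like class. In both, genes reached 30 UMIs only with the Mettl14-cKO library. Several genes measured in ganglion-like and horizontal-like barcodes likewise had under 30 control UMIs. Rbm15 was higher in 7 of 7, with 6 intervals above 1, Mettl16 in 7 of 8 with 6, and Rbm15b in 6 of 7 with 6. Those intervals include the cycling progenitor-like class for Rbm15, the neurogenic-like class for Rbm15b and both for Mettl16. Intervals in these classes are not read as a difference. Virma was higher in 5 of 8, Zc3h13 in 5 of 9 and Cbll1 in 3 of 9, and none of these was lower in any lineage class. Their intervals lay above 1 in 4, 4 and 2 classes, for Virma and Zc3h13 counting some classes in which the gene was not called. Intervals of both genes included 1 in neurogenic-like and cycling progenitor-like barcodes, as did that of Zc3h13 in horizontal-like barcodes.

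The control levels of Mettl14 ordered the better-covered classes as cone-like (35.8 CPM; 28.6 to 44.3), rod-like (33.5; 30.3 to 36.9), Müller glia-like (24.9; 19.4 to 31.5), bipolar-like (24.7; 20.98 to 28.8) and amacrine-like (16.1; 12.8 to 19.9). Of neighbours in that order, only bipolar-like and amacrine-like had intervals that did not overlap. In the Mettl14-cKO library the same classes lay closer together, from 10.6 CPM in amacrine-like to 16.9 in Müller glia-like barcodes. For Rbm15 the control order was cone-like (19.8; 14.5 to 26.3), rod-like (18.7; 16.4 to 21.3), Müller glia-like (17.3; 12.8 to 23.0), bipolar-like (12.6; 9.98 to 15.6) and amacrine-like (8.63; 6.29 to 11.5), with neighbours that all overlap. In the Mettl14-cKO library Müller glia-like barcodes stood first of these 5, at 56.5 CPM, above bipolar-like at 41.4 (36.1 to 47.2), whose interval did not overlap. Zc3h13 had a lower level in Müller glia-like barcodes (51.3 CPM in the control, 43.2 to 60.4) than in cone-like (149), rod-like (146), bipolar-like (132) or amacrine-like (131) barcodes, and the same held in the Mettl14-cKO library, at 64.2 CPM against 146 to 168.

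**Figure D3:**
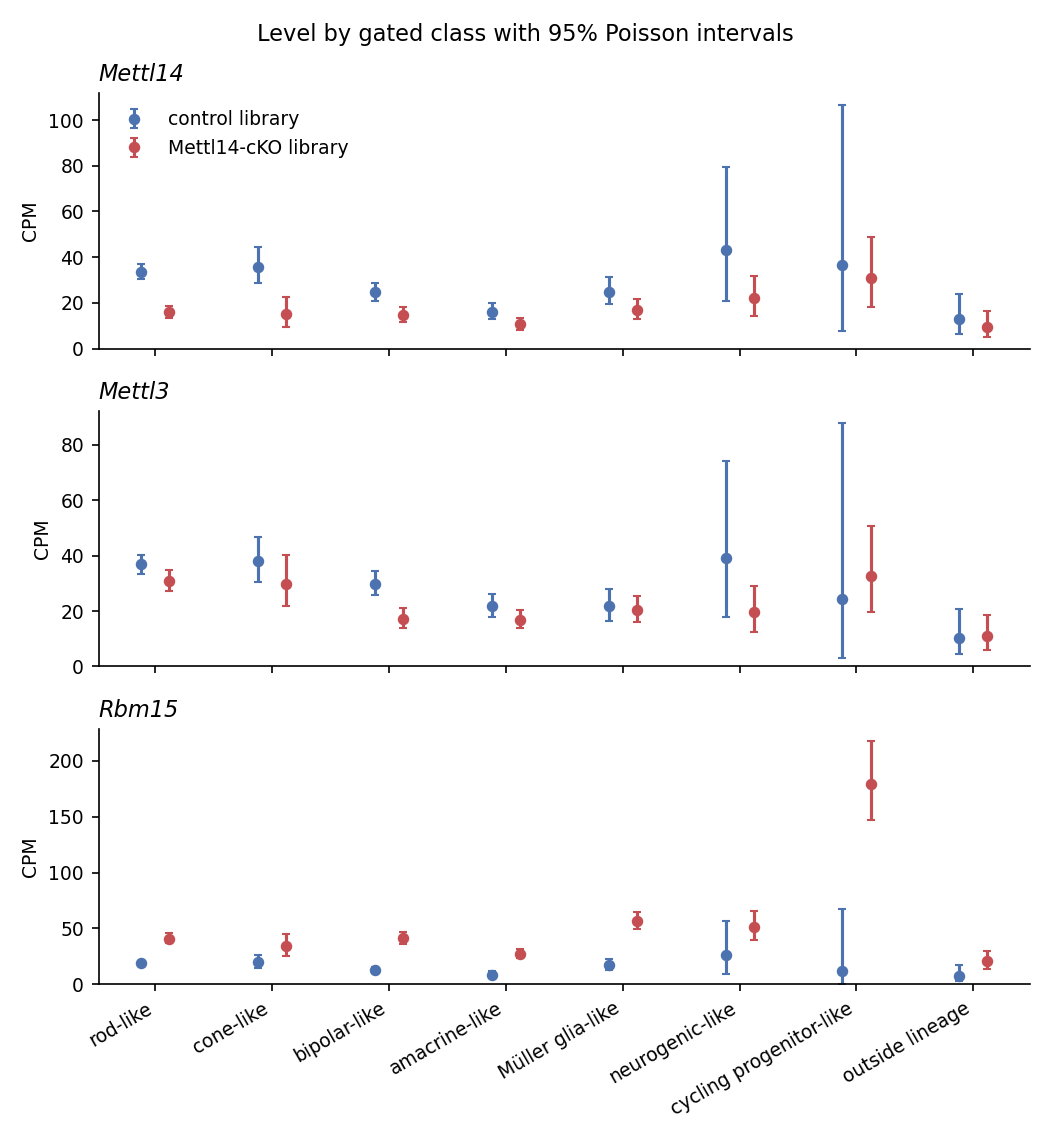
Level (CPM, linear axis from 0) of Mettl14, Mettl3 and Rbm15, 1 panel a gene, by gated class in the control and the Mettl14-cKO library, with exact 95% Poisson intervals. Mettl14 lies lower in the Mettl14-cKO library in rod-like barcodes (33.5 against 15.9 CPM) and Rbm15 lies higher in Müller glia-like barcodes (17.3 against 56.5 CPM). In cycling progenitor-like barcodes the control point of Rbm15 rests on 1 UMI and its interval is wide.

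Astrocyte-, microglia-, pericyte- and endothelial-like barcodes, cells that enter the retina from outside its lineage, came to 116 control and 198 Mettl14-cKO barcodes together. Mettl14 had 10 and 12 UMIs there, 13.0 against 9.51 CPM, too few for a call (0.729; 0.289 to 1.88). Of the 6 genes measured 2 were higher and 1 lower, against 21.7% and 20.6% of all genes. Rbm15 had 6 and 26 UMIs, 7.83 against 20.6 CPM, a ratio of 2.63 (1.06 to 7.82), the only interval to exclude 1. This rested on the astrocyte-like barcodes, 59 and 98, which had 2 and 16 of those UMIs. They needed only 2 astrocyte markers, held a median of 8 and 7 Müller glia markers, and were led by Optc and Igf2 beside S100b and Gfap, so their place outside the lineage is not certain. In the 57 and 100 microglia-, pericyte- and endothelial-like barcodes alone, Rbm15 had 4 and 10 UMIs (1.24; 0.358 to 5.43) and Wtap 19 and 35 (0.915; 0.509 to 1.69). No interval excluded 1 there; 1 of the 4 genes measured was higher and 1 lower, against 22.7% and 24.6% of all genes. The difference between lineage and other cells was not tested.

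Other genes of the pathway were taken from 4 lists of 40 genes in all, to be read against the 24.5% of all genes that were higher and the 23.6% that were lower over all barcodes. Of 14 m6A readers and erasers, 5 were higher and 2 lower over all barcodes, with a median log2 ratio of -0.08. The highest were Igf2bp1 (35 and 229 UMIs, ratio 6.099, 4.26 to 8.97) and Ythdf2 (54.2 against 117 CPM, 2.16, 2.06 to 2.25), a reader that brings methylated transcripts to decay. Igf2bp3 at 1.62, Ythdf1 at 1.47 and the nuclear reader Ythdc1 at 1.31 were also higher, and Fmr1 at 0.748 and Igf2bp2 at 0.788 were lower. Igf2bp1 had too few UMIs in rod-, bipolar- and amacrine-like barcodes. In Müller glia-like barcodes it reached 30 only with the Mettl14-cKO library (3 and 34 UMIs). Igf2bp2 was neither in rod-like (1.02) and amacrine-like (0.911) barcodes. How far class make-up sets these ratios over all barcodes was not tested. The erasers Fto (77.9 against 65.0 CPM, 0.834) and Alkbh5 (64.0 against 57.4, 0.896) were neither. Ythdf2 stood higher in each of the 4 classes in which the lists were counted: 1.88 in rod-like, 2.24 in bipolar-like, 2.29 in amacrine-like and 2.45 in Müller glia-like barcodes.

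Of 8 genes for S-adenosylmethionine supply, 3 were lower and none higher, with a median log2 ratio of -0.20; beside the 23.6% of all genes lower, a count of 3 among 8 is not read as a result about the list. They were Ahcyl1 (117 against 75.7 CPM, 0.649), Mat2a (248 against 190, 0.766; 0.747 to 0.786) and the mitochondrial carrier Slc25a26 (0.791). Mat2a, a transcript that Mettl16 methylates, had a ratio of 0.717 (0.680 to 0.757) in rod-like, 0.859 (0.787 to 0.938) in bipolar-like, 0.923 (0.796 to 1.07) in Müller glia-like and 1.14 (1.04 to 1.24) in amacrine-like barcodes, while Mettl16 was higher in all 4. Differences between the classes were not tested. Of 10 other adenosine and cap methyltransferases, none was higher and 2 were lower, also near the 23.6% of all genes, Mettl5 (28.4 against 19.2 CPM, 0.677) and Mettl4 (0.796). Of 8 SPOC family and nuclear speckle or splicing partners, Rbm4 alone was called, with a log2 ratio of 0.32, and Spen, the founding SPOC protein, stood at 1.07.

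The genes whose levels were most like those of Mettl14 over 23 points (12 classes by library, Pearson's r of log2(CPM + 1) among 11229 genes) were Styx (0.920), Fam53c (0.900), Pms1 (0.896), Rbm41 (0.893) and Krr1 (0.889). Among the writers Mettl3 came closest, at 0.785. For Rbm15 they were Rrp15 (0.868), BC005561 (0.854), Vps33a (0.845), Mir17hg (0.841) and Saal1 (0.835), and Virma came closest among the writers, at 0.709. The points share their libraries and differ in depth. Cycling progenitor-like control barcodes, with 82303 UMIs, fell below the 100000 required and gave no point. Mettl14 had no UMI in microglia-like control and pericyte-like Mettl14-cKO barcodes, and how far such points set its values was not tested. The values of r therefore describe likeness only. The difference between libraries is part of what the genes were matched on.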

How the data were processed

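Dissociated P7 retina was measured in 1 library per genotype with the 10x 3′ v3.1 kit. The deposited values are UMI counts per gene and barcode, made by the authors with Cell Ranger 6.1.1 on mm10, per the submitters' processing notes; strand and intron settings were not given in the sources used here. Gene positions are from GENCODE M21 (GRCm38), the same build. For barcodes with at least 1000 UMIs, counts were added up within each library and class and expressed as CPM, with exact 95% Poisson, conditional (ratio) and Clopper-Pearson (share) intervals (Python 3.11.15, scipy 1.17.1). The deposited barcodes held at least 500 UMIs each.

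Classes came from 155 markers of 15 cell types: a barcode needed 2 to 6 markers of a class, depending on the class. Barcodes passing several gates (2441 control, 2869 Mettl14-cKO) or none (741 and 2088) were left out of class values. Setting aside barcodes with several gates is also how doublets of unlike cells were treated; Scrublet (scanpy 1.11.5) served as an alternative and marked 6.87% and 4.24%. Cones took precedence over rods, cycling over Müller glia-like and neurogenic, horizontal over amacrine, astrocyte over Müller glia-like and pericyte over endothelial. Class names rebuilt in this way need not match those of the study.

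The members and lists were chosen with earlier results of these data known. Gate thresholds and precedence were set after marker counts had been seen, before any member's value under these gates. The 6 motifs (the YY1 and NRF1 letters were shortened after longer forms had been searched), the stretches shown, and the comparisons with overlapping genes, pairs of members and red blood cell-like barcodes were chosen after the data had been seen. Named genes were all 9 members, list genes called higher or lower with at least 100 UMIs, and the 5 genes most like Mettl14 and Rbm15 among those with at least 500 UMIs. Fto, Alkbh5, Spen and the rod marker Gngt1 were named after their values were seen, as were Ythdf2, Igf2bp1, Igf2bp2 and Mat2a by class. Calculations were tested on simulated counts. Alternatives covered depth, doublets, scaling (including TMM by edgeR 4.0.16), class weights, gates and thresholds.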

Additional observations from a re-analysis of the deposited data

Results flagged for a closer look

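In 3 cases a gene was called in the opposite direction in a class from that in most classes where it was called. The difference between classes was not tested, and each interval includes 1. Mettl3 in ganglion-like barcodes had a ratio of 1.61 (0.694 to 4.15; 8 and 23 UMIs) and was lower in 4 classes. Virma in astrocyte-like barcodes stood at 0.777 (0.420 to 1.44; 23 and 24 UMIs) and was higher in 5 classes. Cbll1 in the same class stood at 0.786 (0.391 to 1.59; 18 and 19 UMIs) and was higher in 3.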

How the results depend on the processing

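No paired analysis was possible because each genotype has 1 library and the labels carry no replicate numbers; for the same reason no library could be left out. Of 252 member ratios recomputed under alternatives, 250 stayed within the counting interval of the ratio reported and, where called, on their side of 1. Over all barcodes the ratio of Mettl14 ran from 0.531 to 0.543 and that of Rbm15 from 2.64 to 2.78. The other 2, 1 called ratio that changed side within its interval (Wtap) and 1 that left its interval (Rbm15b), came from leaving astrocyte-like barcodes out of the cells from outside the lineage, an alternative chosen after seeing the data: Wtap went from 1.26 to 0.915 and Rbm15b from 1.01 to 3.48, on 1 and 7 UMIs. Of 58 counts of members called, 53 stayed within 1.5 times. Calls can change within that limit. In Müller glia-like barcodes the ratio of Wtap ran from 1.196 to 1.31 and that of Zc3h13 from 1.215 to 1.28, across the threshold. With a threshold of 1.5-fold, 2 members were higher (Rbm15 and Rbm15b) and 1 lower (Mettl14) over all barcodes, where 13.9% of all genes were higher and 11.6% lower. The lower count became 1, Mettl14, in cone-like barcodes under the stricter marker gate and under median ratio scaling, and in amacrine-like barcodes under the stricter gate, where Mettl3 dropped out. Without thinning, shares of barcodes with a UMI were 11.1% and 5.75% for Mettl14 and 6.49% and 14.9% for Rbm15. Scaling moved the median log2 ratio of all genes from -0.02 to at most 0.0045. Depth limits the ganglion-, horizontal-, neurogenic- and cycling progenitor-like classes and the cells from outside the lineage, and variation between animals was not measured.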
